A study of Mus musculus with 12 samples.

Results

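NF-kB is a family of transcription factors that inhibitor proteins of the IkB family hold in the cytoplasm until a signal such as an inflammatory cytokine marks the inhibitor for destruction. Freed NF-kB then switches on genes for its own inhibitors and for ubiquitin-editing enzymes, which end the signal, and genes for cell surface adhesion molecules to which leukocytes bind. In liver, this response is known from hepatocytes and endothelial cells exposed to products of activated macrophages. The genes described here are 10 feedback and adhesion genes of that response: the IkB family genes Nfkbia, Nfkbie and Bcl3, the ubiquitin enzyme genes Tnfaip3 and Birc3, the subunit genes Nfkb1, Nfkb2 and Relb, and the adhesion genes Icam1 and Vcam1. The list was drawn up with earlier results of these data known, so its counts beside all probe sets are a description and not independent support. The probe sets were taken by symbol, as every probe set whose annotation names exactly 1 of the 10 symbols. This gave 19 of the 34958 probe sets with exactly 1 symbol on the array, for 9 of the 10 genes: 5 for Nfkbia, 3 for Vcam1, 2 each for Nfkbie, Tnfaip3, Nfkb2 and Birc3, and 1 each for Relb, Bcl3 and Icam1. Nfkb1 was not analysed here.

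The samples were 12 Affymetrix arrays of BNL CL.2, a mouse liver cell line, in 4 groups of 3, each after 24 h of culture. In RAW_FAC a culture insert contained the mouse macrophage line RAW 264.7, and the iron salt ferric ammonium citrate (FAC) was present at 100 micromolar. RAW had the macrophages and no added iron. FAC had the iron salt at the same dose, and alone had neither. Where there were no macrophages the insert held further BNL CL.2 cells, so every group had an insert. The RNA is labelled as that of BNL CL.2 cells, so all replicates are of 1 cell line. Values are log2 signals from RMA (a method that summarises and normalizes probe set signals), a change is a difference of log2 group means, and arrays with the same replicate number in 2 groups are called a same-number pair. Fewer cells of a kind and less RNA per cell cannot be told apart in such values.

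Over the 12 arrays the array medians were 5.63 to 5.68. Of 8 measured hepatocyte markers, 4 lay below the median probe set mean of 6.18. The liver transcription factor gene Hnf4a was at 10.22 to 10.75 and the fetal liver gene Afp at 8.30 to 9.71. Alb, which encodes albumin, was at 5.02 to 5.38. Of 7 epithelial markers, 6 lay above that median. The 16 macrophage markers had mean log2 signals of 5.49 to 5.54 in RAW_FAC, 5.49 to 5.54 in RAW, 5.47 to 5.55 in FAC and 5.46 to 5.51 in alone. None of these 16 genes passed in any comparison (0 called in limma with or without a replicate block), 13 lay below that median, and Ptprc, which encodes the leukocyte antigen CD45, was at 3.32 to 3.72. Of the 3 above it, Cd14, a lipopolysaccharide co-receptor gene, was at 11.90 to 12.19 over the 12 arrays, and the group means of Laptm5 and Csf1r were 6.88 to 6.95 and 6.38 to 6.51. Arrays with the same number deviated together from their group means (r of 0.25 to 0.49 over the 18 pairs), so each result is given from a limma fit without and with the replicate number as a block. The change is the same in both fits, and its standard error (SE) is not. The labels do not say what the replicate numbers stand for or whether cultures were separate, and the spread behind each p may therefore be technical.

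The stretches before the start sites are shown first because the NF-kB family acts through short sites in such DNA. RefSeq (GRCm38.p6) windows of 250 bases before the annotated start were at hand for 7 of the 10 genes, Nfkbia, Nfkbie, Tnfaip3, Nfkb2, Birc3, Bcl3 and Icam1. They are 10 windows, since Nfkb2 has 3 and Tnfaip3 has 2, of which the first is shown for each of these genes. The NF-kB consensus searched was GGGRNWYYCC, where R is A or G, W is A or T, Y is C or T and N is any base. Matches to it on either strand, and to GGAANTTCC, which reads the same on both strands, are in capitals below. A match to each may overlap. The windows are chr12:55492648-55492897 on the minus strand for Nfkbia, chr17:45555450-45555699 on the plus strand for Nfkbie, chr10:19015411-19015660 on the minus strand for Tnfaip3, chr19:46304487-46304736 on the plus strand for Nfkb2 and chr9:21015690-21015939 on the plus strand for Icam1.
Nfkbia: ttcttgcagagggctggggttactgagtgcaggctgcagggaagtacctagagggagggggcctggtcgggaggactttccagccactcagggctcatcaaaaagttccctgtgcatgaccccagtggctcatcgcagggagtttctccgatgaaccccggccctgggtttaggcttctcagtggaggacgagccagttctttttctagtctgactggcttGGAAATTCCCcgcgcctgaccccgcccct
Nfkbie: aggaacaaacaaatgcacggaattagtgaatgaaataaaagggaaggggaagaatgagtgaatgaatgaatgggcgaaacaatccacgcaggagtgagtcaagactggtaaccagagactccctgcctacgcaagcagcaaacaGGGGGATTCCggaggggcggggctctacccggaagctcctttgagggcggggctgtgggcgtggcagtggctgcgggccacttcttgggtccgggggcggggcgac
Tnfaip3: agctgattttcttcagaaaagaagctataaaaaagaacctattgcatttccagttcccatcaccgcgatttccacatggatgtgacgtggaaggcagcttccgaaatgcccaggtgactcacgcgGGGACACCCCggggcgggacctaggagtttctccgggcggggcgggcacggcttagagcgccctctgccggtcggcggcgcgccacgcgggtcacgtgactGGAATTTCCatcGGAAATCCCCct
Nfkb2: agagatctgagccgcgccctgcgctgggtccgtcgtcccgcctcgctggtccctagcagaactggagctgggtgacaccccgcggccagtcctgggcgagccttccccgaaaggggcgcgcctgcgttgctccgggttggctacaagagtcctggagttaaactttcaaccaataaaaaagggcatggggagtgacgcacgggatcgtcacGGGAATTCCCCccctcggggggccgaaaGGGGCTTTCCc
Icam1: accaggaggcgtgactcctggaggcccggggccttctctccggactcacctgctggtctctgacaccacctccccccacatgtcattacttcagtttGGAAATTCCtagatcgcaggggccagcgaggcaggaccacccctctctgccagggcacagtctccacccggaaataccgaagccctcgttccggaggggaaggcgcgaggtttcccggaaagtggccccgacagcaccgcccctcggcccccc
The consensus was found in 6 of the 10 windows, against 3.90% of all 32851 windows of that length. By gene, 4 of the 7 had it in at least 1 window (Nfkbia, Nfkbie, Tnfaip3 and Nfkb2), against 4.46% of all 27025 genes with a window. It was in all 3 windows of Nfkb2 and in the first of Tnfaip3, whose second held neither motif. GGAANTTCC was found in 3 of the 10 windows (Nfkbia, Tnfaip3 and Icam1) and in 0.813% of all windows, but it was picked after these windows had been read, so its count over the members shows nothing. In Nfkbia the 2 matches overlap, 29 to 20 bases before the start, whereas in Tnfaip3 they are separate, the nearest consensus match lying 12 to 3 bases before it. The windows of Birc3 and Bcl3 held neither. The genes were listed as genes of the NF-kB response, so the count of the consensus over them is not independent of that choice. A match is a string of letters in the reference and not a measured site.

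Of the 19 probe sets, 18 had a positive average macrophage effect, which is the mean of RAW_FAC minus FAC and RAW minus alone. Their median was 0.22 on the log2 scale, against 0.00 over all 34958 probe sets, of which 51.7% were positive. The sizes were small: the highest was 0.57 for Vcam1, the others were at most 0.47, and 95% of all probe sets had an average macrophage effect of at most 0.14 in size. None of the 19 passed a Benjamini-Hochberg adjusted p of 0.05 in limma, without the block (0.00286% of all probe sets passed) or with it (0.0172%). Counts at an unadjusted p under 0.05, over same-number pairs and of groups that did not overlap were added after no adjusted call had been seen. At an unadjusted p without the block, 8 of 19 were higher (2.23% of all probe sets) and 0 lower (1.65%). With the block 14 of 19 were higher (3.61%) and 0 lower (3.17%). These 14 came from 7 genes, Nfkbia, Nfkbie, Tnfaip3, Nfkb2, Relb, Bcl3 and Vcam1. Probe sets of a gene measure the same RNA, so they are not independent counts. The genes were also listed with earlier results of these data known, so the shares beside all probe sets only describe them. In the plot of members among all probe sets, 15 of the 19 marks lie right of that size of 0.14.

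**Figure D1:**
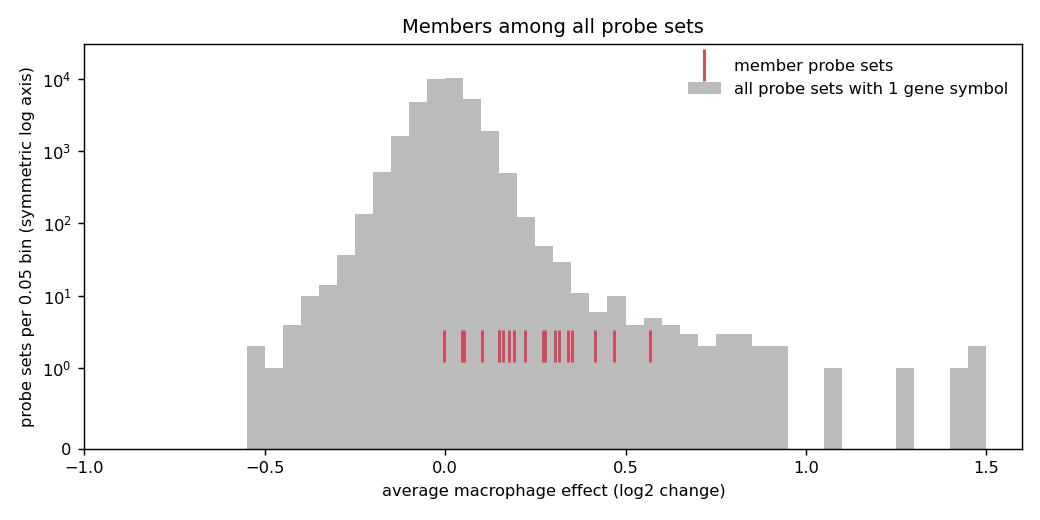
Average macrophage effect (log2 change, x axis) of all 34958 probe sets with 1 gene symbol, as grey bars of probe sets per bin on a symmetric log axis, and of the 19 member probe sets as red marks. The marks lie from -0.00 to 0.57 with a median of 0.22, whereas the bars centre on 0.

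Nfkbia encodes IkB-alpha, the inhibitor that is degraded and remade fastest in NF-kB signalling. Its probe set with the highest mean (1420088_at) had 12.11, 12.50 and 12.20 in RAW_FAC replicates 1 to 3, 12.16, 12.53 and 12.34 in RAW, 11.70, 12.20 and 12.05 in FAC and 11.99, 12.23 and 12.04 in alone. The ranges of all 4 groups overlapped, but within each replicate number the array with macrophages was above its partner without them, in 6 of 6 pairs. The average macrophage effect was 0.27 ± 0.10 (SE without the block) or ± 0.05 (SE with it), a 1.21-fold difference, with an adjusted p of 1.00 without and 0.130 with the block. All 5 probe sets were positive, from 0.19 to 0.34, and the lowest adjusted p of any member in any comparison of the fit with the block, 0.0673, was that of 1438157_s_at (0.28 ± 0.04). Of these 5 probe sets, 3 were higher in 6 of 6 pairs and the other 2 in 5 of 6. The average iron effect lay between -0.09 and 0.01 over the 5, the mean of RAW_FAC minus RAW and FAC minus alone.

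Nfkbie encodes IkB-epsilon, a slower inhibitor of the same family. Probe set 1458299_s_at had 8.67, 9.66 and 9.48 in RAW_FAC, 8.49, 9.13 and 9.04 in RAW, 8.34, 8.93 and 8.73 in FAC and 8.61, 8.73 and 8.63 in alone. RAW_FAC replicates 2 and 3 stood above every other array, while RAW_FAC replicate 1 lay among those of alone. The group means were 9.27 ± 0.53 in RAW_FAC, 8.89 ± 0.35 in RAW, 8.67 ± 0.30 in FAC and 8.66 ± 0.06 in alone (SD, n = 3 each). The average macrophage effect was 0.42 ± 0.16 without and ± 0.09 with the block (adjusted p = 1.00 and 0.311), and 0.47 for the second probe set, 1431843_a_at. Bcl3, a member of the same family that acts in the nucleus, had 8.81, 9.13 and 9.52 in RAW_FAC, 8.56, 8.98 and 9.02 in RAW, 8.57, 9.01 and 8.92 in FAC and 8.68, 8.92 and 8.95 in alone. The ranges of RAW, FAC and alone overlapped, and within each number RAW_FAC was the highest array. The difference for Bcl3 was 0.32 ± 0.17 (SE without the block) in RAW_FAC against FAC and 0.00 ± 0.17 in RAW against alone, both short of the threshold (adjusted p = 1.00 for each).

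Tnfaip3 encodes A20, which removes and adds ubiquitin chains to shut off signalling upstream of NF-kB. Its probe set 1433699_at had 10.49, 11.17 and 11.001 in RAW_FAC, 10.73, 10.99 and 10.76 in RAW, 10.27, 10.76 and 10.52 in FAC and 10.59, 10.72 and 10.46 in alone. All 3 RAW arrays were above all 3 alone arrays, which was so for 2 of the 19 probe sets, this one and Nfkbie 1431843_a_at, against 5.14% of all probe sets. No member had such a gap in RAW_FAC against RAW (4.32% of all), in RAW_FAC against FAC (3.5%) or in FAC against alone (3.88%). The average macrophage effect was 0.30 ± 0.11 without and ± 0.07 with the block (adjusted p = 1.00 and 0.411), higher in 6 of 6 pairs, and 0.15 for the second probe set, also in 6 of 6. Birc3, a ubiquitin ligase gene of TNF receptor complexes, was dim: its probe sets had means of 5.09 and 4.06, below the median of 6.18, and average macrophage effects of 0.10 ± 0.06 and -0.00 ± 0.07 (SE with the block). Its 12 values ran from 4.92 to 5.39 for the brighter one, with all 4 groups overlapping.

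Relb and Nfkb2 encode the subunits of the slower, non-canonical NF-kB dimer. Relb had 7.57, 8.35 and 8.48 in RAW_FAC, 7.54, 8.04 and 7.98 in RAW, 7.30, 7.92 and 7.87 in FAC and 7.52, 7.60 and 7.65 in alone. Replicates 2 and 3 were above all alone arrays in each of RAW_FAC, RAW and FAC, and no replicate 1 array was. Its average macrophage effect was 0.35 ± 0.16 without and ± 0.09 with the block (adjusted p = 1.00 and 0.415), higher in 6 of 6 pairs. Nfkb2 (1425902_a_at) had 8.08, 8.27 and 8.85 in RAW_FAC, 7.89, 8.23 and 8.33 in RAW, 7.81, 8.10 and 8.20 in FAC and 7.996, 8.002 and 8.22 in alone, so RAW_FAC replicate 3 was the one array set apart. Its average macrophage effect was 0.22 ± 0.12 without and ± 0.07 with the block, and 0.18 for its second probe set.

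Vcam1 and Icam1 encode ligands for leukocyte integrins. Vcam1 (1448162_at) had 6.12, 8.03 and 7.32 in RAW_FAC, 6.05, 6.94 and 6.62 in RAW, 6.08, 6.96 and 6.37 in FAC and 6.02, 6.14 and 6.08 in alone. The 4 replicate 1 arrays were between 6.02 and 6.12, level with alone. Replicates 2 and 3 of RAW_FAC, RAW and FAC were above all 3 alone arrays, and the highest was RAW_FAC replicate 2. Its changes were 1.07 ± 0.37 in RAW_FAC against alone, 0.46 ± 0.37 in RAW against alone and 0.39 ± 0.37 in FAC against alone (SE without the block), of which none passed (adjusted p of 0.981, 1.00 and 1.00, and 0.152, 0.857 and 0.881 with the block). Its 3 probe sets differed: the change in RAW_FAC against alone was 0.34 for 1415989_at, which lies below the median, and 0.09 for 1451314_a_at. In the replicate 2 pair these were 0.77 and 0.13, against 1.89 for 1448162_at. Icam1 had 9.34, 9.47 and 9.71 in RAW_FAC, 9.55, 9.24 and 9.35 in RAW, 9.35, 9.41 and 9.295 in FAC and 9.59, 9.36 and 9.36 in alone. The groups overlapped, and its average macrophage effect was 0.05 with a 95% interval of -0.11 to 0.22 (fit with the block), higher in 2 of 6 pairs.

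**Figure D2:**
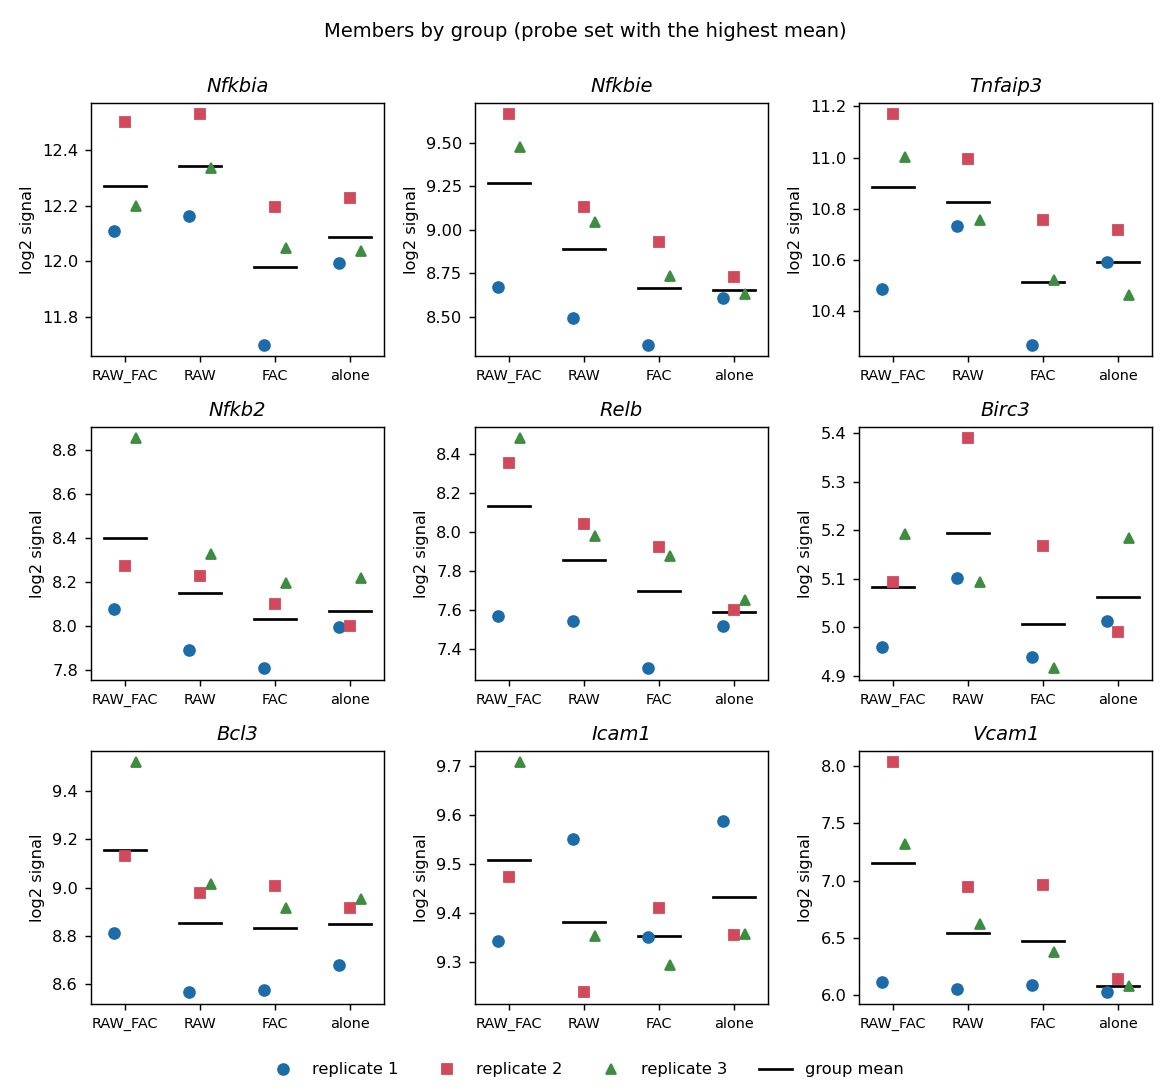
Log2 signal (y axis) of the 9 measured genes on the 12 arrays, by group (x axis), with replicate 1 as blue circles, replicate 2 as red squares, replicate 3 as green triangles and group means as black lines. For Vcam1 the 4 blue circles lie between 6.02 and 6.12 while the red square of RAW_FAC is at 8.03, and the 4 blue circles are also the lowest of their group for Nfkbie and Relb.

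The question of the same-number pairs is whether the change with macrophages was alike in the 3 replicates. The median over the 19 probe sets, averaged over the pairs with and without iron, was 0.15 at number 1, 0.27 at number 2 and 0.32 at number 3, against 0.00, 0.01 and -0.00 over all probe sets. Of the 19, 8 were higher with macrophages in 6 of 6 pairs and 0 lower in 6 of 6, against 2.69% and 2.79% of all probe sets. The 8 were 3 of Nfkbia, 2 of Tnfaip3 and 1 each of Nfkbie, Relb and Vcam1. The change was smallest at number 1 for 13 of the 19 probe sets. It was also smallest there for the 6 probe sets outside the members that passed with the block in this average effect, chosen here after their values were seen: for Irf9, a subunit of the interferon-activated factor ISGF3, it was 0.90, 1.34 and 1.98 at numbers 1, 2 and 3, and for the chemokine gene Ccl7 it was 0.35, 0.93 and 0.63. How many of all probe sets had their smallest change at number 1 was not counted, so the 13 of 19 cannot be called particular to the members. The part of the replicate number in the members' changes was not tested. The difference between Gapdh 3' and 5' control probe sets, a measure of RNA quality, was -0.02 to 0.01 at number 1, -0.05 to -0.03 at number 2 and 0.06 to 0.11 at number 3. For Actb the same difference was 0.36 to 0.41, 0.32 to 0.38 and 0.36 to 0.42, so there the ranges of the numbers overlapped.

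**Figure D3:**
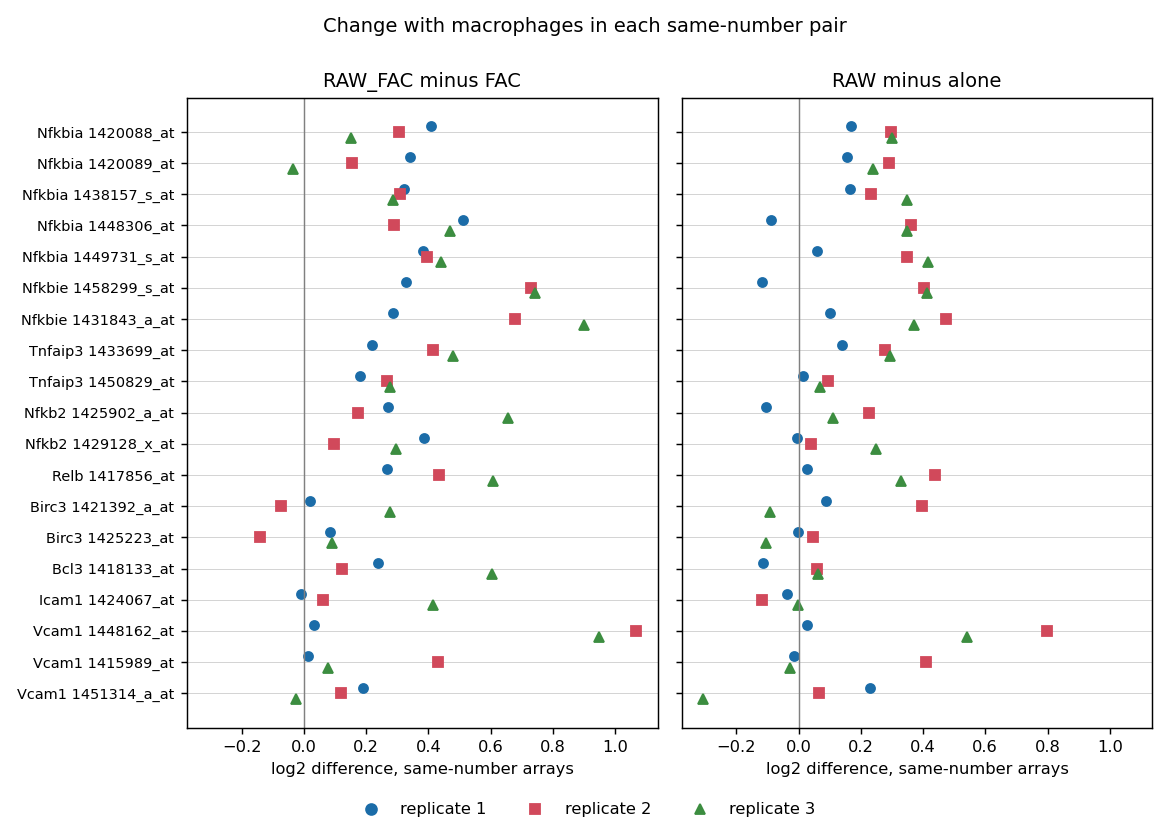
Log2 difference (x axis) between same-number arrays for the 19 member probe sets (rows), RAW_FAC minus FAC on the left and RAW minus alone on the right, with replicates 1, 2 and 3 as blue circles, red squares and green triangles. With iron 18 of the 19 blue circles lie right of 0 (54.1% of all probe sets), and without iron 11 do (47.4% of all).

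Macrophages were compared in each iron condition. In RAW_FAC against FAC, 19 of 19 probe sets had a positive change (51.6% of all), with a median of 0.31 (0.00 over all). Of the 19, 0 passed (0% of all passed in limma without the block and 0% with it). At an unadjusted p, 4 of 19 were higher without the block (1.53% of all) and 13 with it (2.85%), and 0 were lower (1.43% and 2.47% of all). In RAW against alone, 16 of 19 were positive (49% of all) with a median of 0.21, and 0 passed (0% of all in each fit). At an unadjusted p, 0 of 19 were higher without the block (2.53% of all) and 6 with it (3.66%), and 0 lower (1.19% and 2.43% of all). Of these 6, 5 were the Nfkbia probe sets, from 0.21 to 0.27, and the other was Tnfaip3 1433699_at at 0.24. The interaction, (RAW_FAC minus RAW) minus (FAC minus alone), asked whether the change with macrophages differed with iron. It was positive for 17 of 19 (52.6% of all) with a median of 0.16, and 0 passed in either fit (0% of all). At an unadjusted p, 0 were higher without the block (0.904% of all) and 1 with it, Bcl3 at 0.32 ± 0.13 (1.63%), and 0 lower (1.88% and 2.68% of all). The highest interaction was 0.37 ± 0.33 (SE without the block), for Nfkbie.

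Iron was compared without and with macrophages. In FAC against alone the median was -0.04, and 6 of 19 probe sets were positive (48.2% of all). Of the 19, 0 passed without the block (0% of all) or with it (0.0114%). At an unadjusted p, 0 were called without the block (1.57% of all higher and 1.38% lower), and with the block 0 were higher (3.11% of all) and 1 was lower (3.04%), Tnfaip3 1450829_at at -0.18 ± 0.06. In RAW_FAC against RAW the median was 0.09, with 15 of 19 positive (49.1% of all), and 0 passed (0% of all without the block and 0.0515% with it). At an unadjusted p, 0 of 19 were higher without the block (2.59% of all) and 5 with it (5.46%), and 0 lower (2.77% and 4.85% of all), among the 5 Bcl3 at 0.30 ± 0.09 and Nfkbie 1458299_s_at at 0.38 ± 0.13. For the average iron effect the median was 0.02, and 0 passed (0% of all without the block and 0.581% with it). At an unadjusted p, 0 were higher without the block (2.91%) and 4 with it (5.5%), and 0 lower (3.09% and 5.66%). The 4 were Relb, Bcl3 and 2 probe sets of Vcam1. Vcam1 1448162_at was higher with iron in 6 of 6 pairs, by 0.06 at number 1, 0.96 at number 2 and 0.49 at number 3, as was 1415989_at, and these 2 of 19 compare with 3.61% of all probe sets. Tfrc, the transferrin receptor gene that iron is known to lower, had iron differences of -1.01, -1.07 and -1.59 at numbers 1, 2 and 3.

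**Figure D4:**
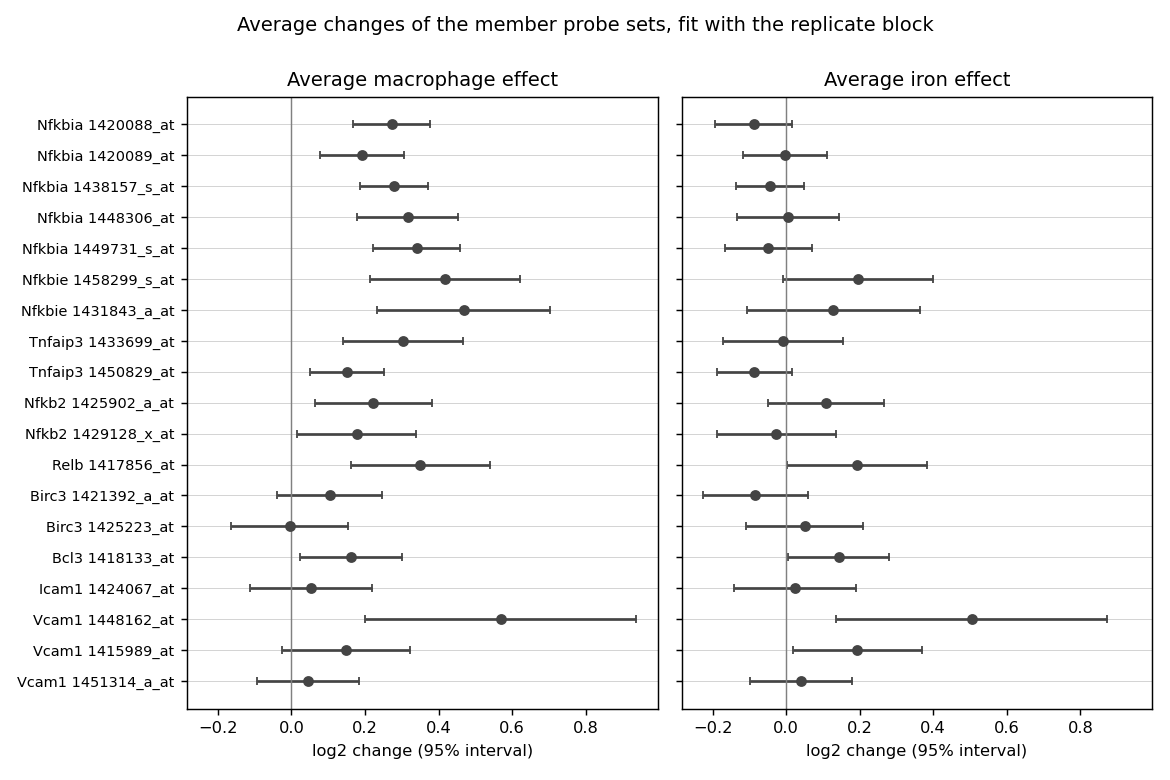
Average macrophage effect (left) and average iron effect (right) of the 19 member probe sets (rows), as log2 changes with 95% intervals from the limma fit with the replicate block (x axis). On the left 14 intervals lie above 0, and on the right 4 do.

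Macrophages and iron together were compared with neither in RAW_FAC against alone. All 19 probe sets had a positive change (50.5% of all), with a median of 0.29 against 0.00 over all. The changes ran from 0.02 for Birc3 to 1.07 for Vcam1, a 2.10-fold difference. None passed in limma without the block (0% of all) or with it (0.103%), where the adjusted p ran from 0.137 for Nfkbie 1458299_s_at (0.61 ± 0.13) to 0.969. At an unadjusted p, 5 of 19 were higher without the block (2.48% of all) and 13 with it (5.03%), and 0 were lower with it (4.5%). In 11 of 19 the change was positive in 3 of 3 same-number pairs (14.6% of all), and in 0 of 19 did the 3 arrays of RAW_FAC lie above the 3 of alone (4.58%). The size differed between replicates: Nfkbie 1458299_s_at differed by 0.06, 0.93 and 0.84 at numbers 1, 2 and 3, Relb by 0.05, 0.75 and 0.83, and Vcam1 1448162_at by 0.09, 1.89 and 1.24. With the 4 replicate 1 arrays left out, the fit with the block called 4 of 19 (0.134% of all), these 3 genes with 2 probe sets for Nfkbie, with changes of 0.79 to 1.56 and limma adjusted p of 0.0170 to 0.0250, on 2 arrays per group. Without number 2 it called 0 members (0% of all), and without number 3 it called 0 (0.00572%).

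For the average macrophage effect the same fit without replicate 1 called 5 of 19 (0.132% of all): both probe sets of Nfkbie, and 1 each of Nfkbia, Relb and Vcam1, from 0.40 to 0.84. Without replicate 2 or replicate 3 it called 0 members in any of the 8 comparisons (for the average macrophage effect, 0% of all in each). With the block, and chosen after the data were seen, leaving out alone replicate 1 by itself called 5 of 19 (0.0973% of all) and leaving out RAW_FAC replicate 1 by itself called 1 (0.0429%). In RAW_FAC against alone each of these called 2 of 19, without alone replicate 1 (0.103% of all) and without RAW_FAC replicate 1 (0.0801%). For the average iron effect leaving out RAW_FAC replicate 1 called 1 of 19 (0.318%), Vcam1 1448162_at. In RAW_FAC against FAC, leaving out all 4 arrays of number 1 called 1 of 19 (0.0257%), Nfkbie 1458299_s_at.

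Other genes of the NF-kB pathway were taken from a list of receptors, kinases, subunits, regulators, targets and adhesion partners, of which 76 of 84 had a probe set (176 probe sets). None of the 176 passed without the block in any comparison, and their median average macrophage effect was 0.01, with 99 of 176 positive (51.7% of all). With the block 0 passed for the average macrophage effect. Ikbke, a kinase gene of the IkB kinase family, had the largest average macrophage effect among them, 0.36 ± 0.16 (SE without the block). It had 8.53, 9.26 and 9.57 in RAW_FAC, 8.55, 9.02 and 9.03 in RAW, 8.31, 8.87 and 8.84 in FAC and 8.64, 8.50 and 8.65 in alone, so replicates 2 and 3 were above alone in the other groups and replicate 1 was not. Tlr2, a receptor gene for bacterial lipoproteins, and Csf1, a macrophage growth factor gene, followed at 0.30 and 0.28. Ikbkg is the gene of the regulatory subunit of the IkB kinase. With the block, its average iron effect was 0.115 to 0.25 over its 6 probe sets. Of these, 2 passed in limma (0.21 and 0.25, adjusted p = 0.0432 and 0.0238), neither of them its brightest. In that comparison 0.581% of all probe sets passed, and SE and p with the block may be too small for iron. Selp is the gene of the adhesion molecule P-selectin, and its average iron effect was -0.75 to -0.53 over its 3 probe sets. Of these, 2 passed (-0.61 and -0.75, adjusted p = 0.0127 and 0.00436). The second of these also passed in RAW_FAC against RAW (-0.97, adjusted p = 0.0239, 0.0515% of all). It passed too in RAW_FAC against alone (-0.87, adjusted p = 0.0347, 0.103% of all). Neither gene passed without the block, and the remaining genes named for iron, Csf2 (a growth factor gene) and Tlr2, had -0.24 and 0.20.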

How the data were processed

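RNA of 12 samples was hybridised to Affymetrix mouse arrays, and the sample titles give the groups and replicate numbers. What was deposited is a table of log2 signals, summarised by the authors with affy and RMA, per the submitters' processing notes, which carry no versions. Names came from GEO's platform annotation: 34958 of 45101 probe sets had 1 symbol and were used, 932 had several and 9211 none. No scaling was added.

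Group means were fitted over all 34958 probe sets and 12 arrays with limma 3.58.1 (R 4.3.3; moderated, two-sided, Benjamini-Hochberg over all probe sets). The number of arrays limits the precision. Residuals correlated at 0.25 to 0.49 in the 18 same-number pairs and at -0.32 to -0.00 in the 36 others, so the replicate number was also fitted as a block. The same-number correlation was higher where iron was shared (median 0.39) than where it was not (0.29), so SE and p with the block may be too small for iron. No 2 arrays shared over 0.166% of their values. Named genes were all members and, of the pathway list, those past the threshold and the 3 largest of each average effect. The genes most alike had the highest Pearson r with a member called in any fit; as no member passed in the fits of all 12 arrays, fits that leave out arrays were counted, a reading made after this was seen. The fits were tested on simulated data. The members and lists were chosen with earlier results of these data known.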

Additional observations from a re-analysis of the deposited data

How the results depend on the processing

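Without a replicate block, 0 of the 19 probe sets passed in each of the 8 comparisons with trend and robust moderation or array weights. The same held with median centring, quantile normalization, a threshold of 0.1, or any 1 of the 12 arrays left out. It held too with only the arrays compared, in the comparisons of 1 group with another. Without dim probe sets 16 were tested, and with 1 probe set or a mean per gene 9 were, and 0 passed. In the fit of all 12 arrays without the block, 0% of all probe sets passed in each comparison except the average macrophage effect (0.00286%). For the alternatives without the block that share is not given, so these counts of 0 are not a result about the members. With the replicate block on all 12 arrays, within an iron condition or as a random block, 0 of the 19 passed too. Leaving out number 1 with the replicate block called 1 of 19 in RAW_FAC against FAC (0.0257% of all probe sets), 4 in RAW_FAC against alone (0.134%) and 5 for the average macrophage effect (0.132%), and leaving out number 2 or 3 called 0. Leaving out 1 array with the replicate block, chosen after seeing the data, gave 0 to 2 in RAW_FAC against alone (2 without RAW_FAC replicate 1, 0.0801% of all, or alone replicate 1, 0.103%), 0 to 5 for the average macrophage effect (5 without alone replicate 1, 0.0973%, and 1 without RAW_FAC replicate 1, 0.0429%) and 0 to 1 for the average iron effect (1 without RAW_FAC replicate 1, 0.318%). The cause was not tested. Of 2745 changes of genes under these alternatives 122 turned sign, none of them past the threshold in either fit, and 3 moved by more than 1 SD of the arrays of a group. The deposited values have no detection calls, so a dim probe set such as those of Birc3 cannot be told from background.

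The turned values, on the log2 scale, were these. In FAC against alone, another probe set of the gene had 0.035 for Nfkbia, -0.025 for Nfkbie, 0.035 for Birc3, -0.0078 for Vcam1. In RAW against alone, another probe set of the gene had -0.020 for Birc3, -0.0031 for Vcam1. In RAW_FAC against RAW, another probe set of the gene had 0.11 for Nfkbia, 0.018 for Nfkbia, 0.066 for Birc3. For the interaction, another probe set of the gene had -0.075 for Nfkbia, 0.031 for Birc3. For the average macrophage effect, another probe set of the gene had -0.0044 for Birc3. For the average iron effect, another probe set of the gene had 0.0057 for Nfkbia, -0.027 for Nfkb2, 0.050 for Birc3. With the mean of the probe sets they were Nfkbie -0.0064 in FAC against alone, Nfkbia 0.0010 in RAW_FAC against RAW. With the replicate block and leaving out number 2 they were Nfkbie -0.083 in FAC against alone, Birc3 -0.0014, Bcl3 -0.027 in RAW against alone, Birc3 -0.022 in RAW_FAC against alone, Birc3 0.15 for the interaction, Icam1 -0.038 for the average iron effect. With the replicate block and leaving out number 3 they were Nfkbie -0.033, Birc3 0.051 in FAC against alone, Bcl3 -0.027 in RAW against alone, Tnfaip3 -0.034 in RAW_FAC against RAW, Birc3 -0.026 in RAW_FAC against FAC, Icam1 -0.063 in RAW_FAC against alone, Icam1 -0.025 for the average macrophage effect, Icam1 -0.038 for the average iron effect. With the replicate block and leaving out number 1 they were Tnfaip3 0.048, Nfkb2 0.040, Bcl3 0.027 in FAC against alone, Nfkbia -0.070 for the interaction, Tnfaip3 0.13 for the average iron effect. With array weights they were Nfkb2 0.0027, Bcl3 0.027 in FAC against alone, Tnfaip3 0.022 for the average iron effect. With quantile normalization they were Bcl3 0.0027 in FAC against alone. With median centring they were Bcl3 -0.0077 in RAW against alone.

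Leaving out 1 array at a time, with or without the replicate block, gave ranges that span 0 as follows. In FAC against alone the range was -0.21 to 0.035 for Nfkbia, -0.12 to 0.21 for Nfkbie, -0.20 to 0.048 for Tnfaip3, -0.12 to 0.077 for Nfkb2, -0.0036 to 0.31 for Relb, -0.15 to 0.019 for Birc3, -0.10 to 0.11 for Bcl3. In RAW against alone the range was -0.011 to 0.21 for Nfkb2, -0.083 to 0.15 for Bcl3, -0.14 to 0.026 for Icam1. In RAW_FAC against RAW the range was -0.19 to 0.021 for Nfkbia, -0.082 to 0.26 for Tnfaip3. In RAW_FAC against alone the range was -0.077 to 0.094 for Birc3, -0.052 to 0.21 for Icam1. For the interaction the range was -0.11 to 0.14 for Nfkbia, -0.0067 to 0.33 for Tnfaip3, -0.029 to 0.45 for Relb, -0.13 to 0.041 for Birc3, -0.21 to 0.75 for Vcam1. For the average macrophage effect the range was -0.011 to 0.12 for Icam1. For the average iron effect the range was -0.079 to 0.091 for Tnfaip3, -0.0047 to 0.19 for Nfkb2, -0.040 to 0.091 for Icam1.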

Other observations

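No member passed in a fit of all 12 arrays. For the 4 called once arrays were left out of the fit with the replicate block, a reading of the rule made after this was seen, the genes with the most similar values over the 12 arrays (Pearson r among 9097 brighter genes, as a description with no test, over arrays that share replicate numbers and treatments) were these. For Nfkbia they were Invs, Zfp36l1 and Kdm7a (0.91, 0.91 and 0.90). For Nfkbie they were Relb, Pvr and Ikbke (0.96, 0.93 and 0.93), and for Relb they were Ikbke, Tor3a and Nfkbie (0.98, 0.98 and 0.96). For Vcam1 they were Nfkbie, Cep162 and Arid5b (0.95, 0.95 and 0.92).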
